A study of Mus musculus with 12 samples.

Results

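The nuclear genes of oxidative phosphorylation were followed in bulk RNA of the mouse pylorus, the outlet of the stomach. Gene symbols were taken by name: those of complex I (Ndufa, Ndufb, Ndufc, Ndufs and Ndufv genes), complex II (Sdha to Sdhd), complex III (Uqcr genes), complex IV (Cox4 to Cox8 genes) and complex V, the ATP synthase (Atp5 genes). These patterns matched 92 of the 23420 symbols in the count table, and 88 had at least 10 counts in at least 3 libraries. All 88 were among the 15369 genes tested. The name "subunits" holds for most of them but not all. By role they were 35 subunits of complex I, 4 of complex II, 8 of complex III, 17 of complex IV and 15 of complex V, beside 7 assembly factors of complex I (Ndufaf1 to Ndufaf7) and 2 genes that encode no subunit (Atp5s and Atp5sl). Ndufa4 and its homologue Ndufa4l2 carry complex I names but were counted with complex IV, where the Ndufa4 protein resides, and Cox7a2l, a factor that joins complexes into supercomplexes, was kept there too.

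The libraries came from C57BL/6 mice. They fell into 4 groups of 3 libraries each: CEA424-SV40 T Ag transgenic mice at 80 days of age (D80), wild-type mice at D80, transgenic mice at 60 days (D60) and wild-type mice at D60. As background, the transgene places the large T antigen of the virus SV40, which binds p53 and the retinoblastoma proteins, under a piece of the promoter of the human carcinoembryonic antigen gene, so that it is made only in cells where that promoter is active. The labels do not say that libraries came from separate animals, and p-values therefore measure the spread between these libraries, which may be technical.

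As background, electrons from NADH enter the respiratory chain at complex I and those from succinate at complex II, pass through ubiquinone to complex III and through cytochrome c to complex IV, and are there handed to oxygen. Complexes I, III and IV pump protons out of the matrix, and complex V lets them back in to make ATP. Each complex but complex II is built from proteins of both genomes, and the genes below are the nuclear share. The table held 0 of the 13 protein genes of the mitochondrial genome, so that share was not analysed here. In the stomach, acid-secreting parietal cells are known for their dense mitochondria.

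Library totals ran from 20121600 to 27633715 counts. Levels are given as CPM, counts relative to an effective library size that a trimmed mean of M-values (TMM) sets. The TMM factor was 1.21 to 1.30 in the 3 D80 transgenic libraries and 0.805 to 1.03 in the other 9, so the choice of scale matters for every comparison with that group. Some libraries stood apart. Summed duodenal enterocyte markers reached 11319 CPM in D80 wild-type replicate 3, against 550 and 2700 CPM in the other replicates of that group. Summed pancreatic acinar markers reached 4053 CPM in D80 transgenic replicate 1, against 801 and 934 CPM in the others. By Xist and Y-linked genes the D60 wild-type libraries and D80 transgenic replicate 1 were male-type and the other 8 female-type, so genotype and sex coincided at D60 and cannot be told apart there. The 7 markers of antral stomach, all detected, summed to 15609 to 23109 CPM in D80 transgenic, 52782 to 87253 CPM in D80 wild-type, 66624 to 82112 CPM in D60 transgenic and 68410 to 114510 CPM in D60 wild-type libraries.

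At D80 most of the oxidative phosphorylation genes were lower in transgenic than in wild-type pylorus. Of 88 genes, 68 fell and 2 rose by edgeR's quasi-likelihood test (Benjamini-Hochberg adjusted p under 0.05 over all genes tested), where 22% of all genes fell and 19.4% rose. The median log2 fold change was -0.57 over the 88 genes and -0.07 over all genes tested. The 68 genes that fell were lower by 23.0% to 49.7% in transgenic libraries. In 71 genes the 3 transgenic libraries lay below the 3 wild-type libraries without overlap, which was the case for 26.1% of all genes, and in 2 genes they lay above them, as in 24.4% of all genes. Summed over the 88 genes, the level was 11583, 11922 and 10877 CPM in D80 transgenic libraries, against 15795, 16316 and 19238 CPM in D80 wild-type libraries. The highest transgenic library was thus below the lowest wild-type library.

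The size of this difference and the number of calls rested on the scale, while the distance of the median from that of all genes moved less. Without a TMM factor, on library totals alone, the median of all genes at D80 moved by 0.41 on the log2 scale, 8 of the 88 genes fell (9.09%), near the 6.51% of all genes that fell on that scale, and 2 rose. On that scale 68 of the 88 had a negative fold change. All calls together then split 83.6% higher, against 46.8% higher with TMM. With upper-quartile factors the shift was 0.16, and 45 of the 88 genes and 13.6% of all genes fell. The median of the 88 genes stayed 0.40 to 0.56 below the median of all genes on the log2 scale, and 79 to 82 of the 88 genes lay below it, under each of the 23 other fits at D80. The share of raw counts that fell on the 88 genes is on the scale of library totals, so the same shift applies to it. This share was 1.43% ± 0.04 for the D80 transgenic group and 1.59% ± 0.07 for the D80 wild-type group (SD, n = 3 each), with no overlap (exact permutation test, two-sided, p = 0.1, the smallest that 3 against 3 libraries allow). Without both libraries rich in duodenal and pancreatic transcripts, 36 of the 88 genes and 15.7% of all genes fell, and the median was -0.47. Without D80 transgenic replicate 3 alone, 41 of the 88 and 12.2% of all genes fell.

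**Figure D1:**
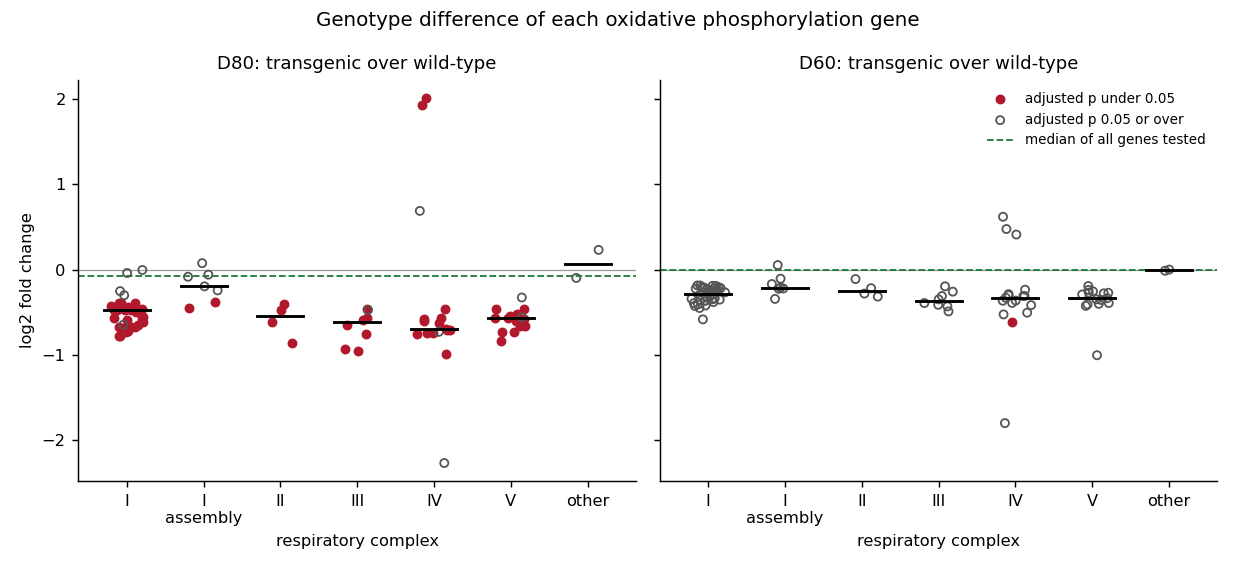
Log2 fold change (vertical axis) of each of the 88 genes, transgenic over wild-type, at D80 (left) and D60 (right), by respiratory complex (horizontal axis). Filled points passed an adjusted p of 0.05, open points did not, black bars are medians and the dashed line is the median of all genes tested. At D80, 68 filled points lie below 0 and 2 of complex IV lie near 2. At D60, 1 filled point lies below 0.

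Markers of cell types moved with the genotype difference. Summed smooth muscle markers were 2695 to 2837 CPM in D80 transgenic, 11069 to 18002 CPM in D80 wild-type, 6893 to 13964 CPM in D60 transgenic and 15610 to 20390 CPM in D60 wild-type libraries, and 10 of 10 were lower in transgenic libraries at D80. Summed striated muscle markers were 12.2 to 15.6 CPM in D80 transgenic and 51.1 to 95.7 CPM in D80 wild-type libraries. Surface mucous cell markers summed to 36311 to 51741 CPM in D80 transgenic and 106655 to 152112 CPM in D80 wild-type libraries, with 5 of 6 lower. Parietal cell markers were sparse, at 30.3 to 59.7 CPM in D80 transgenic and 81.8 to 191 CPM in D80 wild-type libraries, with 1 of 5 tested genes lower and 1 higher. Neuroendocrine markers were at 24847 to 37241 CPM in D80 transgenic and 495 to 535 CPM in D80 wild-type libraries, with 8 of 8 higher, and 5 of 5 neutrophil and 4 of 4 macrophage markers were higher too. At D60, where 8 of 8 neuroendocrine markers were also higher, these summed to 4296 to 5877 CPM in transgenic and 294 to 424 CPM in wild-type libraries. Their part in the oxidative phosphorylation result was not tested. In bulk RNA, fewer cells of a type and less RNA per cell cannot be told apart.

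Complex I, the entry point for NADH, had 30 of 35 subunits lower at D80 and none higher, with a median log2 fold change of -0.48. Without D80 transgenic replicate 3, 19 of the 35 fell. All 7 nuclear core subunits, which carry the flavin, the iron-sulfur clusters or the quinone site, fell. Among them, Ndufs1, the largest iron-sulfur subunit, had 98.6, 96.1 and 84.8 CPM in D80 transgenic libraries, against 113, 139 and 136 CPM in D80 wild-type libraries. The groups did not overlap, although the lowest wild-type library was close to the transgenic ones (log2 fold change -0.47 ± 0.13, SE, adjusted p = 0.015, edgeR). Ndufv1, which binds NADH, was at -0.48 ± 0.14 (adjusted p = 0.017). For Ndufs3, another core subunit, 39.7% of the 50-base stretches of its transcript also occur in other genes. Of 28 accessory subunits, 23 fell. Ndufb8, an accessory subunit of the membrane arm (chr19:44548572-44555440, minus strand, GENCODE M21 on GRCm38), fell most, with 131, 141 and 124 CPM in D80 transgenic libraries, against 199, 198 and 284 CPM in D80 wild-type libraries. Every transgenic library was below every wild-type one, and wild-type replicate 3 was the highest (-0.79 ± 0.17, adjusted p = 0.0038).

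The other 5 complex I subunits did not pass the test. Ndufa1, an accessory subunit encoded on the X chromosome, had 64.6, 79.6 and 76.5 CPM in D80 transgenic libraries, against 76.8, 64.3 and 85.9 CPM in D80 wild-type libraries. The groups overlapped (-0.04 ± 0.14, adjusted p = 0.84), and the sign turned positive under several other scales and without single libraries. Ndufc2 was at -0.01 ± 0.14 (adjusted p = 0.98). Ndufb11, also on the X chromosome, was at -0.25 ± 0.13 (adjusted p = 0.13), Ndufa2 at -0.30 ± 0.16 (adjusted p = 0.15) and Ndufb4 at -0.65 ± 0.25 (adjusted p = 0.06). The third X-linked gene, Cox7b of complex IV, fell (-0.74 ± 0.18, adjusted p = 0.0062). The assembly factors of complex I, which build the complex but are not part of it, had 2 of 7 lower and a median of -0.20. This was near all genes tested, of which 22% fell, with a median of -0.07. Ndufaf5 fell (-0.45, adjusted p = 0.019), as did Ndufaf7 (-0.38, adjusted p = 0.029), while Ndufaf4 had a log2 fold change of 0.07 (adjusted p = 0.73). On library totals alone none of the 7 passed and their median was 0.22. Atp5s and Atp5sl, which encode no subunit, did not pass the test either, at 0.23 (adjusted p = 0.46) and -0.10 (adjusted p = 0.62).

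Complex II, which also works in the citric acid cycle, had all 4 subunits lower at D80. Sdhc, a membrane anchor of the complex (chr1:171127165-171150603, minus strand), had 143, 134 and 133 CPM in D80 transgenic libraries, against 235, 242 and 266 CPM in D80 wild-type libraries. The replicates were tight and the groups lay far apart (-0.86 ± 0.12, adjusted p = 0.00025, the smallest of the 88 genes). Sdhb, the iron-sulfur subunit, fell by 0.62 on the log2 scale (SE 0.15, adjusted p = 0.0064) and Sdhd, the other anchor, by 0.47 (SE 0.14, adjusted p = 0.018). Sdha, the flavoprotein, was at the edge of the test, with 301, 277 and 249 CPM in D80 transgenic libraries, against 312, 372 and 415 CPM in D80 wild-type libraries (-0.41 ± 0.15, adjusted p = 0.047). On library totals alone its fold change was 0.02, and 1 of the 4 subunits fell. With either D80 wild-type replicate 3, D80 transgenic replicate 2 or D80 transgenic replicate 3 left out, 2 of the 4 fell.

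Complex III had 7 of the 8 subunits taken by name lower at D80. Its subunit cytochrome c1, Cyc1, has another kind of name and is given with the electron carriers below. The 5 small subunits, which are supernumerary, fell by a median of 0.76 on the log2 scale. Uqcr10 (chr11:4701973-4704342, minus strand) had 105, 110 and 105 CPM in D80 transgenic libraries, against 192, 180 and 248 CPM in D80 wild-type libraries, and the groups did not overlap (-0.96 ± 0.17, adjusted p = 0.0011). Uqcrb, a small subunit next to the ubiquinone site (chr13:66900617-66905378, minus strand), had 98.6, 95.1 and 99.5 CPM in D80 transgenic libraries, against 171, 199 and 192 CPM in D80 wild-type libraries (-0.94 ± 0.14, adjusted p = 0.00039). Its transgenic replicates were close to each other and well below the wild-type ones, but 43.4% of the 50-base stretches of its transcript also occur in other genes, which makes its count uncertain. The core proteins and the Rieske iron-sulfur protein had 2 of 3 genes lower and a median of -0.47. Uqcrc2 was at -0.59 ± 0.15 (adjusted p = 0.0083), Uqcrfs1, the Rieske protein, at -0.46 ± 0.13 (adjusted p = 0.015) and Uqcrc1 at -0.47 ± 0.18 (adjusted p = 0.056). Without D80 transgenic replicate 3, 4 of the 8 fell.

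Complex IV, cytochrome c oxidase, had the largest median difference of the complexes, -0.70 with TMM and -0.26 on library totals alone, with 12 of 17 genes lower and 2 higher. All 12 general genes, Cox7a2l counted among them, fell, with a median of -0.71. Of the 5 isoforms of restricted expression 0 fell and 2 rose. Cox5a, a subunit found in every tissue (chr9:57521274-57532426, plus strand), had 200.5, 192 and 172 CPM in D80 transgenic libraries, against 287, 403 and 431 CPM in D80 wild-type libraries. All transgenic libraries lay below the lowest wild-type library (-0.99 ± 0.19, adjusted p = 0.0017). Of the 50-base stretches of its transcript, 32.0% also occur in other genes. Cox4i1, the general form of subunit 4, was at -0.59 ± 0.15 (adjusted p = 0.011), Cox5b at -0.70 ± 0.14 (adjusted p = 0.0026) and Cox6c at -0.75 ± 0.19 (adjusted p = 0.0076). The remaining general genes, Cox6a1, Cox6b1, Cox7a2, Cox7a2l, Cox7b, Cox7c, Cox8a and Ndufa4, fell by 0.46 to 0.74 on the log2 scale. Cox7c shares 53.0% of its 50-base stretches with other genes, so its count is uncertain too.

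The isoforms went otherwise. Cox6b2, known as the testis form of subunit 6b (chr7:4751792-4753094, minus strand), had 3.39, 5.20 and 4.80 CPM in D80 transgenic libraries, against 1.46, 0.529 and 1.30 CPM in D80 wild-type libraries. Both groups were low and did not overlap, and the gene rose (2.01 ± 0.43, adjusted p = 0.0036). Against its general partner Cox6b1 it made up 1.51%, 2.16% and 2.14% in D80 transgenic libraries, and 0.424%, 0.142% and 0.297% in D80 wild-type libraries. Ndufa4l2, known as a target of the hypoxia response (chr10:127514967-127517154, plus strand), had 3.82, 5.20 and 5.30 CPM in D80 transgenic libraries, against 1.38, 0.794 and 1.56 CPM in D80 wild-type libraries. It rose as well, again from a low level and without overlap (1.93 ± 0.42, adjusted p = 0.0038). Relative to Ndufa4 its counts were 3.54%, 4.39% and 4.59% in D80 transgenic libraries, and 0.738%, 0.468% and 0.767% in D80 wild-type libraries. Its exons overlap Shmt2 on the opposite strand, and the strand setting of the counting is not given in the sources used here. Cox4i2, the lung form of subunit 4, was at 0.69 ± 0.44 (adjusted p = 0.24), and Cox7a1, the muscle form of subunit 7a, at -0.73 ± 0.52 (adjusted p = 0.28). The value of Cox7a1 turned positive, 0.14, without D80 wild-type replicate 3, where it stood at 14.7 CPM against 2.11 and 6.31 CPM in the other wild-type libraries. Cox8b, the muscle form of subunit 8, was near the limit of detection, with 0, 0.221 and 0.217 CPM in D80 transgenic libraries, against 0.731, 0.265 and 1.13 CPM in D80 wild-type libraries (-2.27 ± 0.87, adjusted p = 0.055).

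Complex V, the ATP synthase, had 13 of 15 genes lower at D80 and none higher, with a median of -0.57. In the catalytic head 5 of 5 genes fell, and in the stator stalk 4 of 4. Of the stalk genes, Atp5h shares 50.5% and Atp5f1 38.7% of their 50-base stretches with other genes, so their counts are uncertain. Atp5a1 and Atp5b, the alpha and beta subunits of the head, had the highest CPM of the 88 genes. Atp5b had 1388, 1353 and 1214 CPM in D80 transgenic libraries, against 1617, 1847 and 2005 CPM in D80 wild-type libraries. The groups did not overlap, and the test was passed narrowly (-0.47 ± 0.17, adjusted p = 0.045), as it was by Atp5a1 (-0.54 ± 0.17, adjusted p = 0.022) and by Atp5o of the stalk (-0.46 ± 0.15, adjusted p = 0.026). With 1 library left out at a time, Atp5b lost its call in 9 fits, and Atp5a1 and Atp5o in 4 each. In the membrane part 4 of 6 genes fell. Atp5k, the small subunit e (chr5:108433244-108434448, minus strand), had 85.4, 88.2 and 81.8 CPM in D80 transgenic libraries, against 136, 139 and 183 CPM in D80 wild-type libraries, with a wide gap between them (-0.84 ± 0.16, adjusted p = 0.0018). Of the 3 genes for the proton-carrying subunit c, Atp5g1 (-0.66 ± 0.13, adjusted p = 0.0026) and Atp5g3 (-0.59 ± 0.15, adjusted p = 0.01) fell, and Atp5g2 was at -0.33 ± 0.15 (adjusted p = 0.092). Atp5g2 shares 87.4% and Atp5l 84.8% of their 50-base stretches with other genes, and Atp5l was listed at no more than 2.08 CPM in any D80 library, so both are uncertain. Without D80 transgenic replicate 3, 7 of the 15 fell, and 8 without D80 wild-type replicate 3.

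Per kilobase of transcript, the ATP synthase and complex IV led the level of the 86 genes with a known length. Atp5b was highest in D80 wild-type libraries, at a mean of 688 CPM per kilobase in D80 transgenic and 951 in wild-type libraries of that age. Cox6a1 followed with 468 in transgenic and 766 in wild-type libraries, and Cox8a with 481 in transgenic and 744 in wild-type libraries. In D80 wild-type libraries the lowest were isoforms of complex IV: Cox4i2, with 1.74 CPM per kilobase in transgenic and 1.07 in wild-type libraries, and Ndufa4l2, with 5.11 in transgenic and 1.33 in wild-type libraries. In D80 transgenic libraries Cox8b was lowest, with 0.406 CPM per kilobase, against 1.97 in wild-type libraries.

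**Figure D2:**
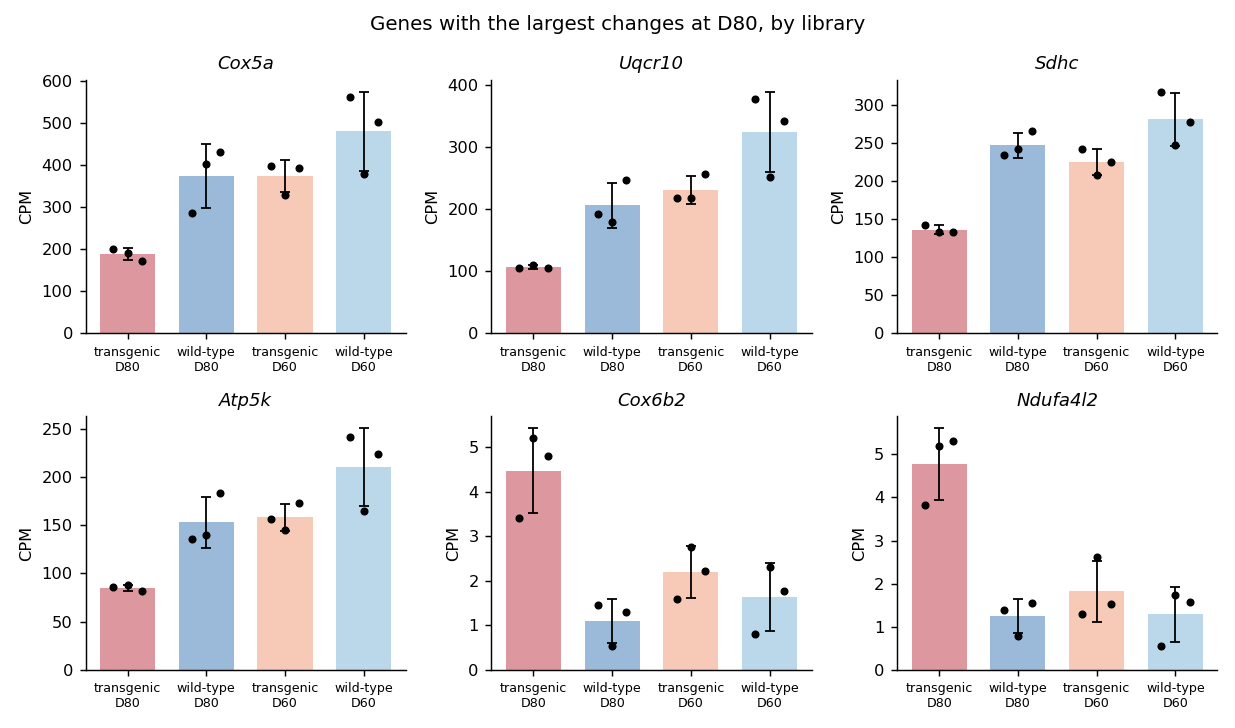
CPM (vertical axes, from 0) of 6 genes in each library, by group (horizontal axis): bars are means, whiskers SD over 3 libraries, points single libraries. Cox5a, Uqcr10, Sdhc and Atp5k are lowest in D80 transgenic libraries, while Cox6b2 and Ndufa4l2 are highest there.

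Promoters of respiratory genes are known for sites of the nuclear respiratory factor NRF1, of the ETS factor GABP (also called NRF2) and of YY1. RefSeq windows of 250 bases before to 50 after the start (GRCm38.p6) were at hand for 71 of the 88 genes. Exact matches to 3 motifs were searched on both strands: a palindrome of 10 bases for NRF1, spelled out in capitals in the Atp5k sequence, ACTTCCGG (reverse CCGGAAGT) for ETS factors and AAGATGGCG (reverse CGCCATCTT) for YY1. The NRF1 letters were in 7 of 71 genes (9.86%) and in 1.07% of the 27025 genes of the promoter table. The YY1 letters were in 7 of 71 (9.86%) and in 1.64% of all, and the ETS letters in 5 of 71 (7.04%) and in 4.31% of all. These counts include matches in the 50 bases after the start. The YY1 letters lay there in each of their genes but Atp5j. Of the genes with a window, 57 fell at D80, and among them 4 held the NRF1, 5 the ETS and 7 the YY1 letters. Among the 14 that did not fall, 3 held the NRF1 letters and 0 either of the others. The 250 bases before the start of 4 genes that fell are shown 5′ to 3′ on the gene's own strand, the minus strand for each, because they hold 1 match each and come from complexes III, IV and V. Capitals mark the match. The NRF1 letters begin 50 bases before the start of Atp5k (chr5:108434400-108434649) and 162 bases before that of Cox6a1 (chr5:115348959-115349208). The ETS letters begin 66 bases before the start of Uqcr11 (chr10:80406822-80407071), and the YY1 letters 88 bases before that of Atp5j, a stalk subunit whose exons overlap those of Gabpa, the gene of the GABP alpha chain, on the opposite strand (chr16:84834977-84835226). Atp5j has 2 windows, and the other (chr16:84835576-84835875) held none of the 3 motifs.
Atp5k: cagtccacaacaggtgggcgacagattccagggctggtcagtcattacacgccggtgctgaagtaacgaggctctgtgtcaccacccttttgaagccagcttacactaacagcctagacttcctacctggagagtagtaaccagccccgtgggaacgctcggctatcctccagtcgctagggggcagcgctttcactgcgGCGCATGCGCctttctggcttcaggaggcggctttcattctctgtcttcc
Cox6a1: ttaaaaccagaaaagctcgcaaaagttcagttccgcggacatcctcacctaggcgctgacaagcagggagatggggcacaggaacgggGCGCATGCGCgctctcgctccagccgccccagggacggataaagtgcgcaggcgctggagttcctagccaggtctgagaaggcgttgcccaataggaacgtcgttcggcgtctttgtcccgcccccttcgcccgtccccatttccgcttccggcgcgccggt
Uqcr11: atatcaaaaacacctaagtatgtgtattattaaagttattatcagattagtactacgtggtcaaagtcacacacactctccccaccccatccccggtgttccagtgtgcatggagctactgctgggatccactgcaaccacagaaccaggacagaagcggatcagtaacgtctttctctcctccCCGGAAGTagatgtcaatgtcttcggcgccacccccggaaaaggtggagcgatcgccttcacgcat
Atp5j: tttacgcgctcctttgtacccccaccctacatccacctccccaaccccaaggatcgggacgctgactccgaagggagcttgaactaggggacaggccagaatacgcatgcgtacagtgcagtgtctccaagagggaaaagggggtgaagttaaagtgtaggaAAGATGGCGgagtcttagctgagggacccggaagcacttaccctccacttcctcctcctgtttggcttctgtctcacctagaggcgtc
A match of letters is a description of the sequence and shows neither binding nor a cause of the change. All 4 genes were lower at D80: Atp5k as given above, and Cox6a1 with 276, 281 and 244 CPM in D80 transgenic libraries, against 404, 400.0 and 509 CPM in D80 wild-type libraries (adjusted p = 0.0045). Uqcr11, a small subunit of complex III, had 104, 117 and 103 CPM in D80 transgenic libraries, against 181, 142 and 225 CPM in D80 wild-type libraries (adjusted p = 0.0058). Atp5j had 137, 137 and 139 CPM in D80 transgenic libraries, against 202, 230 and 254 CPM in D80 wild-type libraries (adjusted p = 0.0034), with the transgenic replicates close together.

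At D60 most of these genes had negative fold changes and 1 passed the test. Of 88, 1 fell and 0 rose by edgeR, where 0.241% of all genes fell and 3.66% rose, 3.9% in all. The fold change was negative in 84 genes, with a median of -0.30 over the 88 genes and of -0.004 over all genes tested. At an unadjusted p under 0.05, 38 of the 88 were lower and 0 higher, against 4.67% lower among all genes. The 3 transgenic libraries lay below the 3 wild-type ones in 22 genes, which held for 7.84% of all genes. The gene that passed was Ndufa4 of complex IV (chr6:11900292-11907497, minus strand). It had 177, 164 and 178 CPM in D60 transgenic libraries, against 298, 210.2 and 286 CPM in D60 wild-type libraries. Wild-type replicate 2 was the nearest to the transgenic libraries (-0.61 ± 0.14, adjusted p = 0.027, edgeR). DESeq2 called 3 lower, Ndufa4, Atp5g1 and Atp5l, and 0 higher, where it called 1.03% of all genes lower, and limma-voom 1 lower and 0 higher.

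By complex the D60 medians were -0.29 for complex I, -0.25 for complex II, -0.37 for complex III, -0.33 for complex IV and -0.34 for complex V. Summed over the 88 genes, the level was 17382, 14864 and 16450 CPM in D60 transgenic libraries, against 22396, 17167 and 20888 CPM in D60 wild-type libraries. Wild-type replicate 2 fell within the transgenic range, and the other wild-type libraries were above it. The share of raw counts was 1.56% ± 0.04 in D60 transgenic and 1.79% ± 0.12 in D60 wild-type libraries (SD, n = 3 each), without overlap (exact permutation test, two-sided, p = 0.1, the smallest possible). With sex as a covariate 0 of the 88 passed, and their median was -0.32. Ndufa4 was then at -0.73 ± 0.26 (adjusted p = 0.65). Only the D80 transgenic group held both sexes, so the sex term rested on D80 transgenic replicate 1 against replicates 2 and 3. This fit therefore cannot separate sex from genotype at D60. Leaving out D60 wild-type replicate 2 gave 7 genes lower, where 0.384% of all genes were lower, and leaving out any other D60 library gave 0.

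**Figure D3:**
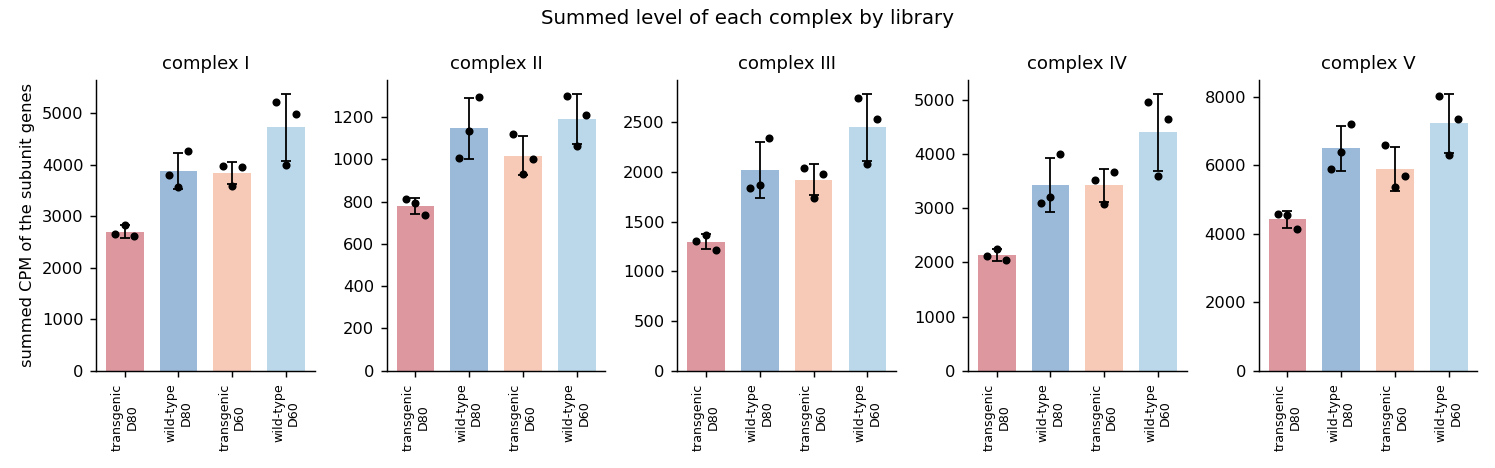
Summed CPM of the subunit genes of complexes I to V (vertical axes, from 0) in each library, by group (horizontal axis): bars are means, whiskers SD over 3 libraries, points single libraries. In each complex the D80 transgenic libraries are the lowest, and wild-type libraries at D60 reach the highest level.

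Between the ages, most of these genes were lower in the older transgenic pylorus. At D80 against D60, 60 of the 88 genes fell in transgenic mice and 1 rose, where 18% of all genes fell and 17.7% rose (edgeR). The median was -0.49 over the 88 genes and 0.02 over all genes tested. The D80 libraries lay below the D60 libraries without overlap in 70 genes, as in 28% of all genes, and above them in 3, as in 30.6% of all genes. The counts by complex were 27 of 35 lower in complex I, 3 of 4 in complex II, 6 of 8 in complex III, 12 of 17 in complex IV and 11 of 15 in complex V. Uqcr10 fell most, with 105, 110 and 105 CPM in D80 transgenic libraries, against 218, 217 and 257 CPM in D60 transgenic libraries, and without overlap (-1.12 ± 0.17, adjusted p = 0.00076). Cox5a was next (-0.99 ± 0.19, adjusted p = 0.0024), and then Ndufb8 (-0.96 ± 0.17, adjusted p = 0.0019). Ndufa4l2 was the gene that rose (1.39 ± 0.41, adjusted p = 0.021), a call lost when D60 transgenic replicate 1 or 3, or D80 transgenic replicate 2 or 3, was left out. Several subunits that passed in the genotype comparison did not pass here: Ndufs1 had -0.19 ± 0.13 (adjusted p = 0.29), Sdha -0.04 ± 0.15 (adjusted p = 0.84) and Atp5b -0.27 ± 0.17 (adjusted p = 0.23). This comparison shares the D80 transgenic libraries with the genotype comparison at D80, so they are not independent of each other. Without a TMM factor the median of all genes moved by 0.37, and 20 of the 88 genes and 7.14% of all genes fell. Without D80 transgenic replicate 3, 39 of the 88 and 10.6% of all genes fell.

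In wild-type mice no gene of the 88, and 0% of all genes tested, changed between D80 and D60 by edgeR. The 88 genes still had a median of -0.26, against 0.04 over all genes. At an unadjusted p under 0.05, 37 were lower, against 4.25% of all genes. In 9 genes the D80 libraries lay below the D60 ones without overlap (4.55% of all genes), and in 0 above them (7.06% of all genes). DESeq2 called 3 lower (Ndufa4, Ndufb8 and Uqcr10), and 0.59% of all genes, and limma-voom called 0 of the 88. Uqcr10 had 192, 180 and 248 CPM in D80 wild-type libraries, against 378, 253 and 343 CPM in D60 wild-type libraries. The lowest D60 library was just above the highest D80 library (-0.65 ± 0.17, adjusted p = 0.29, edgeR). All D60 wild-type libraries were male-type and all D80 wild-type libraries female-type, so age and sex cannot be told apart there.

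Whether the genotype difference changed with age was tested as an interaction. No gene of the 88 passed by edgeR in either direction, where 2.23% of all genes were lower and 2.77% higher, and 10 of the 88 had an unadjusted p under 0.05 (11.4%), against 23.2% of all genes. DESeq2 called 1 of the 88, Sdhc, lower, and 5.11% of all genes, and limma-voom called 0 of the 88. Without D80 wild-type replicate 1, edgeR called 3 of the 88 lower, Cox5a, Sdhc and Uqcrb, and 9.87% of all genes. For Sdhc the difference between D80 and D60 was -0.54 on the log2 scale (unadjusted p = 0.0078, adjusted p = 0.084, edgeR), and for Uqcrb -0.63 (adjusted p = 0.086). The median of the 88 genes was -0.24 and that of all genes -0.06, but on library totals alone the median of all genes moved by 0.30 and that of the 88 turned to 0.07.

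Genes that feed or serve the chain were read from lists by role. At D80, mitochondrial fatty acid oxidation, which delivers electrons to the chain, had 14 of 14 tested genes lower and a median of -0.84. Acadm, the medium-chain dehydrogenase, averaged 52.9 ± 4.04 CPM in D80 transgenic and 95.3 ± 14.2 CPM in D80 wild-type libraries (SD, n = 3 each; log2 fold change -0.85 ± 0.12, adjusted p = 0.00023, edgeR). On library totals alone 8 of the 14 fell. Pyruvate entry had 9 of 12 lower. Its members included both Pdha1, a subunit of pyruvate dehydrogenase (-0.81 ± 0.12, adjusted p = 0.00037), and kinases that inhibit that enzyme, Pdk2 (-0.96 ± 0.14, adjusted p = 0.00031) and Pdk4 (-2.40 ± 0.46, adjusted p = 0.002). The citric acid cycle had 9 of 13 lower, with Suclg1 of succinyl-CoA ligase at -0.61 ± 0.10 (adjusted p = 0.00088). In the list of electron carriers 6 of 13 were lower. Among them were Cyc1, cytochrome c1 (-0.58 ± 0.13, adjusted p = 0.0055), and Coq3, an enzyme of ubiquinone synthesis (-0.66 ± 0.14, adjusted p = 0.0036). Cyc1 is itself a subunit of complex III that the name patterns did not take. These lists had 0 genes higher at D80. On library totals alone 3 genes of pyruvate entry fell, 1 of the citric acid cycle fell and 1 rose, and of the electron carriers 0 fell and 1 rose, with a median of 0.11.

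Among carriers of nucleotides and phosphate 4 of 6 were lower, including the outer membrane channel Vdac2 (-0.90 ± 0.17, adjusted p = 0.0016) and the ADP/ATP carrier Slc25a5 (-0.73 ± 0.19, adjusted p = 0.01). Complex IV assembly had 12 of 19 lower, with Higd1a at -0.93 ± 0.16 (adjusted p = 0.0011). The other assembly lists were short, and 22% of all genes were lower. They had 2 of 7 lower for complex I factors outside the Ndufaf genes and 0 of 2 for complex II. For complex III 1 of 3 was lower and 1 higher, Ttc19 (0.62 ± 0.17, adjusted p = 0.013). For the ATP synthase and its inhibitor 2 of 4 were lower. Mitochondrial ribosomal proteins had 30 of 76 lower with a median of -0.31, and on library totals alone 1 lower, 4 higher and a median of 0.10. On that scale the median turned to 0.03 for complex IV assembly, where 1 fell and 2 rose, to 0.03 for the ATP synthase list and to 0.12 for the complex I factors. Redox defence had 4 of 8 lower with TMM and 0 of 8 on library totals alone, and the single tested uncoupling gene, Ucp2, fell (-0.90 ± 0.19, adjusted p = 0.0034).

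Regulators of mitochondrial gene expression had 4 of 15 lower and 2 higher, near the shares of all genes, 22% lower and 19.4% higher. On library totals alone 0 were lower and 4 higher, where 6.51% of all genes were lower and 5104 of 15369 higher. Ppargc1b, a coactivator of respiratory genes, averaged 6.60 ± 1.96 CPM in D80 transgenic and 13.0 ± 3.55 CPM in D80 wild-type libraries (-0.98 ± 0.26, adjusted p = 0.012). Esrra, its nuclear receptor partner, fell (-0.64 ± 0.20, adjusted p = 0.024), and so did Gabpa (-0.34 ± 0.11, adjusted p = 0.028). The related receptor gene Esrrg rose, averaging 12.7 ± 3.15 CPM in D80 transgenic and 1.88 ± 0.83 CPM in D80 wild-type libraries (2.76 ± 0.45, adjusted p = 0.0007), and Gabpb1, the partner of Gabpa, rose too (0.32 ± 0.11, adjusted p = 0.039). Ppargc1a was at 0.39 ± 0.23 (adjusted p = 0.19), Nrf1 at -0.22 ± 0.11 (adjusted p = 0.13) and Yy1 at -0.29 ± 0.12 (adjusted p = 0.081). At D60, 1 of the 76 ribosomal protein genes was lower, and no other tested gene of these lists passed (edgeR).

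**Figure D4:**
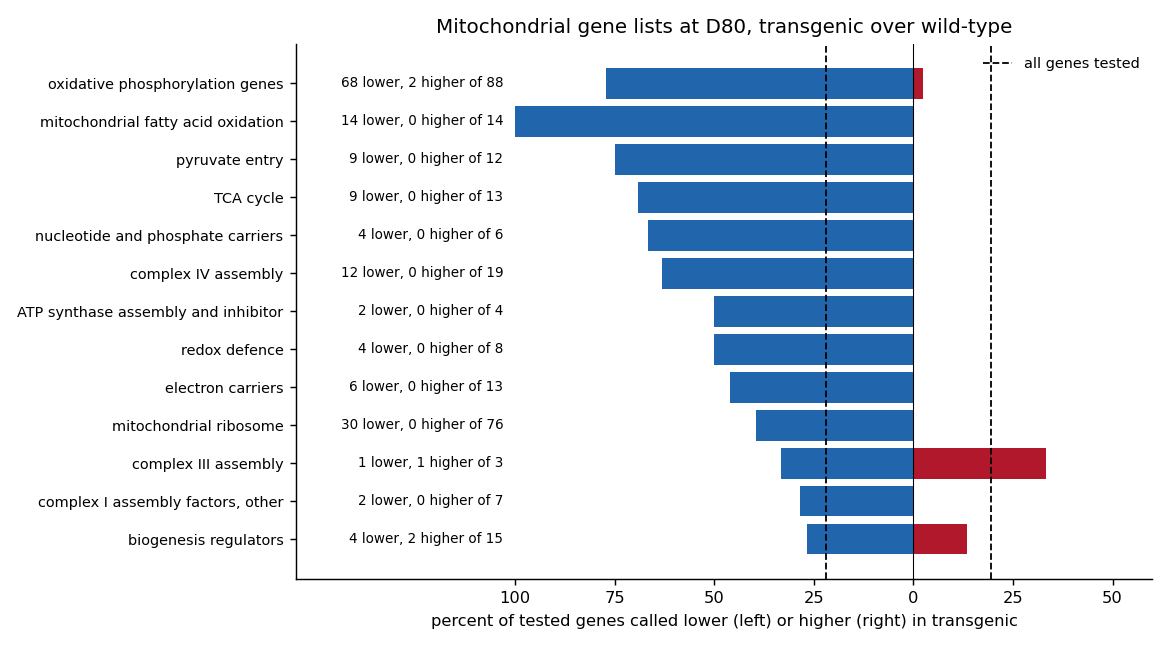
Percent of the tested genes of each mitochondrial list with more than 2 tested genes that were lower (left, blue) or higher (right, red) in D80 transgenic against D80 wild-type libraries. Dashed lines mark all genes tested, 22% lower and 19.4% higher. Fatty acid oxidation reaches 14 of 14 lower, and the regulators stay near the lines.

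Transcript length moved with the values as well. Among genes with transcripts of up to 600 bases the median log2 fold change at D80, transgenic over wild-type, was -0.65 for the oxidative phosphorylation genes and -0.42 for all genes of that length. Above 1000 and up to 2000 bases it was -0.47 for the oxidative phosphorylation genes and -0.09 for all genes. In wild-type D80 over D60 the shortest class gave -0.41 for the oxidative phosphorylation genes and -0.26 for all genes, and the class above 1000 and up to 2000 bases gave -0.15 and -0.02 for the same sets. Across the 86 genes with a length, Spearman's rho between length and fold change was 0.35 at D80, 0.36 at D60 and 0.50 between the ages in wild-type mice. Over all 14445 genes with a length it was 0.030 at D80, 0.055 at D60 and 0.136 between the ages in wild-type mice. Pearson's r over the 86 genes at D80, with log2 length, was 0.125. These are correlations across genes of the same libraries, which are not independent replicates. The genes stayed below all genes of the same length class in each class of up to 4000 bases in these 3 comparisons, and the part of length in the result was not tested further.

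**Figure D5:**
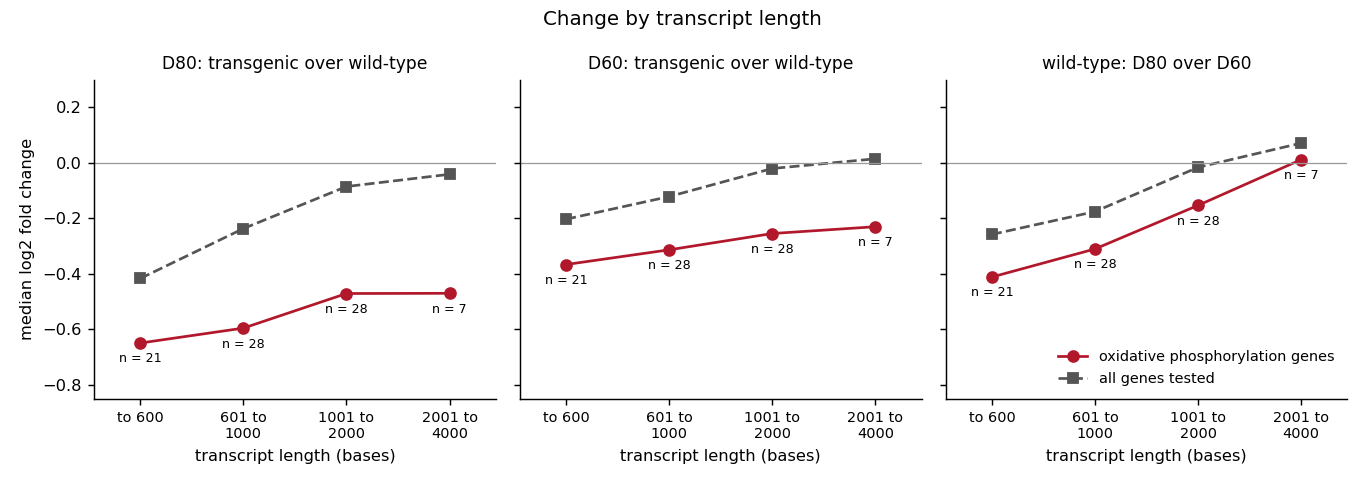
Median log2 fold change (vertical axis) by transcript length class in bases (horizontal axis) for the oxidative phosphorylation genes (circles, n beside each) and all genes tested (squares), in 3 comparisons. The shortest transcripts have the lowest medians, and the oxidative phosphorylation genes lie below all genes in each class shown.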

How the data were processed

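RNA of fresh pylori was read with a stranded mRNA kit, per the labels' protocols. The submitters' processing notes list STAR 2.5.3a, HTSeq 0.9.1, edgeR 3.16.5 and mm10, without their roles. Annotation and strand setting were not given in the sources used here. Raw counts per gene symbol, deposited by the authors, were used, and their normalized table was not.

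From the counts, edgeR 4.0.16 in R 4.3.3 was run with TMM factors, its filter on low counts (15369 genes kept of 23420) and 1 quasi-likelihood fit to all 12 libraries (8 residual degrees of freedom, biological coefficient of variation 24.2%). Contrasts were transgenic over wild-type at each age, D80 over D60 in each genotype, and the interaction. Calls used an adjusted p of 0.05. Intervals are standard errors of this fit. DESeq2 1.42.0, limma-voom (limma 3.58.1), other scales and filters, a replicate block, sex as a covariate and leaving out libraries were alternatives. Only the main edgeR fit was tried on simulated counts, read for transgenic over wild-type at D80. There few genes changed, all downward, so the trial did not cover shifts of scale like those seen here. Shares of counts were compared by an exact permutation test. A count of 3 is worth 0.149 CPM in the smallest and 0.109 CPM in the largest library, for counting error only.

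Replicate numbers did not pair libraries (mean correlation of deviations -0.004 over 18 pairs). The members and lists were chosen with earlier results of these data known. Genes named were, by rule, the 6 largest called changes in each direction in the genotype comparisons, the 3 largest in the others, catalytic and core subunits, isoforms, X-linked genes, and up to 3 genes with the smallest p per list. Ndufc2, Ndufa2, Ndufb4, Atp5l, the named assembly factors, Uqcr11, Atp5j, and, for the motifs, Gabpa, Gabpb1, Nrf1, Yy1 and Ppargc1a were named after their values were seen. Ndufs3, Atp5h and Atp5f1 were named for their shared stretches. A gene of the rule is not reported here by name. Lengths, shared 50-base stretches and gene positions came from GENCODE M21 (90 of 92 symbols matched), and promoters from RefSeq.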

Additional observations from a re-analysis of the deposited data

How the results depend on the processing

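With 3 libraries per group precision is limited throughout, and genes near 1 CPM, such as Cox8b, Cox4i2 and Atp5l, also rest on few counts. At D80, of the 88 genes, 45 fell with upper-quartile factors, 8 on library totals alone and 36 without D80 wild-type replicate 3 and D80 transgenic replicate 1. Of all genes, 13.6%, 6.51% and 15.7% fell in the same fits. In that order the counts were 19, 1 and 17 of 35 in complex I and 8, 1 and 6 of 15 in complex V. On library totals both were thus below or near the share of all genes. In complex II they were 2, 1 and 2 of 4, with 2 also when only the groups compared entered the fit. On library totals 2 of 8 fell in complex III and 3 of 17 in complex IV, and without the 2 libraries 4 and 5 did. The fits without libraries had fewer samples, but their calls also differed by which library was left out. The cause was not tested for any of these settings. On library totals Sdha was at 0.017, Atp5g2 at 0.076, Ndufb11 at 0.15 and Ndufa1 at 0.38, each positive. Ndufa1 was also positive with upper-quartile factors (0.12), with only the groups compared (0.0080), with sex as a covariate (0.045) and without the 2 libraries (0.14), where Cox7a1 was at 0.080. At D60, 3 of the 88 fell with DESeq2, 0 with only the groups compared and 0 with sex as a covariate. That sex term rested on D80 transgenic replicate 1. Between the ages in transgenic mice, 20 fell on library totals, and 2 rose, Cox6b2 with Ndufa4l2, on library totals, with DESeq2, with limma-voom and with only the groups compared. DESeq2 called 3 lower between the ages in wild-type mice and 1 in the interaction.

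Leaving out 1 library at a time gave 41 to 70 genes lower at D80, with 19 to 31 in complex I, 2 to 4 in complex II, 4 to 8 in complex III, 9 to 13 in complex IV and 7 to 13 in complex V. It gave 0 to 7 lower at D60, 39 to 61 lower and 0 to 2 higher between the ages in transgenic mice, and 0 to 3 lower in the interaction. Of all genes, 12.2% to 23.8% were lower at D80 and 0.0577% to 0.429% at D60 in these fits. Between the ages in transgenic mice 10.6% to 20.9% of all genes were lower, and 0.385% to 9.87% in the interaction. Cox7a1 ranged from -1.18 to 0.14 and Ndufa1 from -0.15 to 0.057 at D80. Of 472 values of single genes under the other alternatives, 395 kept direction and side of the threshold, and 9 changed direction.

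The replicate numbers did not pair the libraries. With the replicate block 65 of the 88 genes fell at D80, where 19.9% of all genes fell. Between the ages in transgenic mice 56 of the 88 and 16.4% of all genes fell.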

Other observations

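Of the 92 symbols matched by name, 4 were dropped for low counts. Cox6a2, the heart and muscle form of subunit 6a, had 8, 7 and 15 counts in D80 transgenic libraries, against 1, 5 and 1 counts in D80 wild-type libraries. It had 2, 1 and 4 counts in D60 transgenic libraries, against 0, 2 and 1 counts in D60 wild-type libraries. Cox7b2 had 3 counts over all libraries, Cox8c had 0, and Ndufs5, a subunit of complex I, was listed at 0 in all 12 libraries. Of the 50-base stretches of the Ndufs5 transcript, 31.1% also occur in another gene. Just inside the count minimum was Cox8b. Of the 90 matched symbols, 43 shared no 50-base stretch with another gene.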
